A study of Mus musculus with 4 samples.

Results

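The mouse genes whose names begin with Mrpl, Mrps, Nduf, Uqcr, Sdh, Atp5 or Cox and a digit encode the mitochondrial ribosome and the respiratory chain, and here they were followed as places where phosphorylated STAT3 (pSTAT3) sat on chromatin. They were picked by name alone, pseudogene names left out, from the authors' table of reproducible pSTAT3 regions, which lists for each region the Ensembl transcripts within 25 kb and the nearest one. The table named 97 such genes, among 15255 gene names in all, beside 144 of its 12925 regions, and no region was listed beside more than 1 of them. RefSeq annotates 187 protein-coding genes with such names on this assembly, and 88 of them do not appear in the authors' table.

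The cells were oligodendrocyte progenitors cultured from the cortex of C57BL/6 mice, with PDGF-AA at 10 ng/ml and bFGF at 20 ng/ml in the medium. Every culture was exposed for 15 min to CNTF at 100 ng/ml, a cytokine which leads to phosphorylation of STAT3 through the gp130 receptor and JAK kinases. The series holds 2 ChIP libraries made with an antibody against tyrosine-phosphorylated STAT3 and 2 input libraries. Input libraries were left out here, and no group lacks CNTF, so whether a region depends on CNTF cannot be told. Separate cultures behind the 2 ChIP libraries are not stated, and lysed cells were pooled, so their spread may be technical only. RNA was not measured, so the cell type could not be checked by expression. Regions lay within 5 kb of a start of 4 of 5 progenitor markers and 5 of 5 astrocyte markers. For microglia markers it was 1 of 5 and for neuron markers 2 of 5, beside 18.1% of all protein-coding genes. Within 1 kb the counts were 2, 3, 1 and 1 of 5 in the same order, beside 12.8%. These counts describe binding and are no check of the cell type.

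STAT3 is a transcription factor that dimerises after tyrosine phosphorylation, enters the nucleus and binds DNA at a palindromic site. Oxidative phosphorylation passes electrons through complexes I to IV and uses the proton gradient in complex V to make ATP. A few subunits are encoded by the mitochondrial genome and are translated by the mitochondrial ribosome, whose proteins, like most respiratory chain subunits, come from nuclear genes. Many of those nuclear genes have short, GC-rich promoters with sites for NRF1, ETS factors and YY1. A separate pool of STAT3 inside mitochondria has been described in the literature, which ChIP peaks on nuclear genes do not address.

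Promoter sequences are shown here because in 4 of these genes the summits of both libraries lay within 30 bp of a STAT palindrome. For 3 of the 4 the promoter run is given, and for Atp5o, whose match lies past a listed start, the match alone. Each run is RefSeq sequence of build GRCm38.p6, written 5′ to 3′ in the direction of the gene. It begins 150 bases before the RefSeq start and stops before the most upstream start listed. Capitals mark matches to the palindrome TTCNNNGAA. The runs lie at chr1:37890327-37890476 on the plus strand for Mrpl30, chr3:105959277-105959413 on the minus strand for Atp5f1, named Atp5pb in RefSeq, and chr2:36049407-36049488 on the minus strand for Ndufa8. The fourth, at chr14:54426759-54426908 on the plus strand, belongs to Mrpl52, which had the strongest region of the group at a start, by the lower fold of both libraries, and has no match in its promoter window.
Mrpl30: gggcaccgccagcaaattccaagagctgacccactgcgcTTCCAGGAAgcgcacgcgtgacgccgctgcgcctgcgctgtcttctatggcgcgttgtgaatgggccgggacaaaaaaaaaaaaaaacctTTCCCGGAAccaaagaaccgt
Atp5f1: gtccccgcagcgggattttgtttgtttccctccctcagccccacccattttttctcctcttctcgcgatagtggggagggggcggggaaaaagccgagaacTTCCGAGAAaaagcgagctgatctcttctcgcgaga
Ndufa8: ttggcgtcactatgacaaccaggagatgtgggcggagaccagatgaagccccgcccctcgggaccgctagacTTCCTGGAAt
Mrpl52: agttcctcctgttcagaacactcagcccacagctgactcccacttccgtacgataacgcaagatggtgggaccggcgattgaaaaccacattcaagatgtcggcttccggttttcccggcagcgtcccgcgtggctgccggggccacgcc

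In Ndufa8, the match TTCCTGGAA was centred 74 bp upstream of the RefSeq start, and the summits lay 75 bp upstream in replicate 1 and 71 bp upstream in replicate 2. Mrpl30 had the match TTCCAGGAA 107 bp upstream, with summits 102 and 86 bp upstream, and a further match, TTCCCGGAA, 17 bp upstream. In Atp5f1 the match TTCCGAGAA lay 45 bp upstream, between the summits at 56 and 27 bp upstream. The ATP synthase gene Atp5o had TTCCCAGAA 20 bp upstream, with summits 44 and 25 bp upstream. These 4 were the only mitochondrial genes of the 22 with a summit of replicate 1 in the promoter window, 250 bases before to 50 after a RefSeq start, in which a match lay within 30 bp of both summits. That is 18.2%, beside 10.4% of 1035 gene-region pairs at other protein-coding promoters. A match anywhere in the window was in 5 of the 22 (22.7%), near the 20.2% of those pairs. These small counts were not tested. Mrps25 had a match too, but 139 and 112 bp from its summits, and the other 17 had none in the window. A match is a description of letters, and no match says only that these letters are not in this window.

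**Figure D1:**
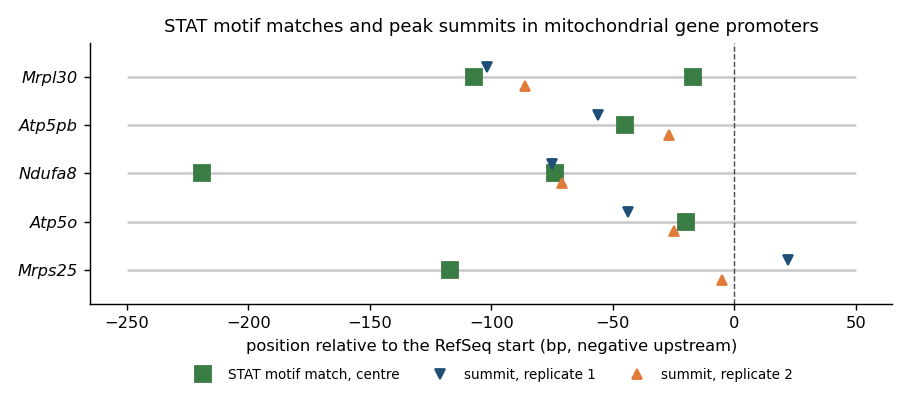
Positions in bp from the RefSeq start (dashed line, negative upstream) of STAT motif matches (squares) and of the peak summits of replicate 1 (down triangles) and replicate 2 (up triangles), for the 5 mitochondrial genes with both a summit and a match in the window of 250 bases before to 50 after the start. In Mrpl30, Atp5pb, Ndufa8 and Atp5o a match lies within 30 bp of both summits, and in Mrps25 it lies over 100 bp away.

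A region midpoint lay within 1 kb of a listed start in 43 of the 97 genes. Of the 187 genes by RefSeq name these 43 are 23.0% (95% Wilson interval 17.5 to 29.5%), and the share over all 21883 protein-coding genes was 12.8%. Within 5 kb the counts were 52 of the 97 named genes and 53 of the 187 (28.3%), beside 18.1% of all protein-coding genes. The extra gene is counted under a synonym. Expression was not measured, so genes silent in these cells could not be set aside, and no test of the list was made. The other 45 genes of the 97 had their nearest region 5 to 25 kb away in 35 and farther in 10. With the peaks of replicate 1 alone, 74 of the 97 genes had a summit within 1 kb of a start, and with those of replicate 2 alone 56 had one. The 97 were already listed beside a reproducible region, so these counts have no match over all genes. By RefSeq starts, given here for 158 of the 187, 71.5% had a replicate 1 peak within 1 kb, beside 37.8% of all protein-coding genes. For replicate 2 it was 46.8%, beside 23.7%.

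Each of the 43 genes had exactly 1 region within 1 kb. Their strength is given as the fold enrichment over local background, which the authors' peak caller wrote for each peak, and the pileup, the count of overlapping fragments at its highest point. As a yardstick, the promoter region of Stat3 had 57.0-fold and 73.5-fold enrichment in replicates 1 and 2, and that of Socs3, which encodes a STAT3-induced inhibitor of JAK kinases, had 49.9-fold and 49.2-fold. None of the 43 came near those values, but of all 12925 regions only 7.76% reached even 20-fold in both libraries. Strength is ranked throughout by the lower fold of both libraries. For the 43 this lower fold ranged from 2.70 to 27.1 with a median of 7.08. The median was 7.59 for 2686 regions at other protein-coding starts and 7.48 for all regions. Regions of at least 20-fold in both libraries were 4 of 43 (9.30%), beside 8.64% at other protein-coding starts.

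**Figure D2:**
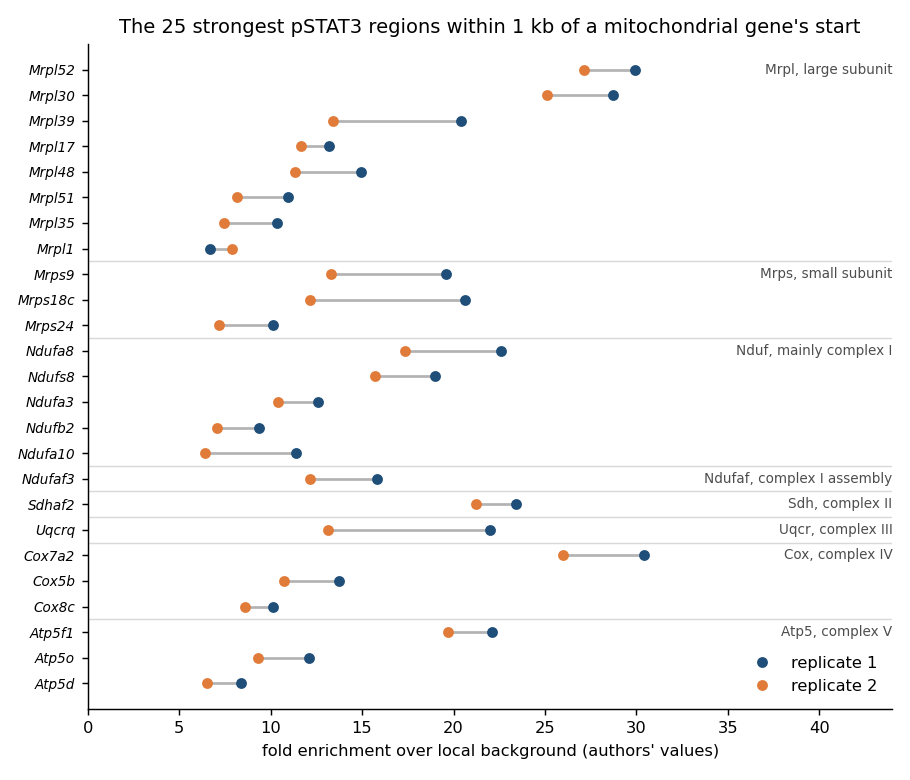
Fold enrichment over local background, as the authors' peak caller gave it, in replicate 1 and replicate 2 for the 25 strongest regions, by lower fold, of the 43 within 1 kb of a mitochondrial gene's start, by family. Lines join the replicates of a region; Mrpl52, Mrpl30 and Cox7a2 lie above 25-fold in both, and Mrpl1 alone has the higher fold in replicate 2.

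Among large-subunit proteins of the mitochondrial ribosome, 14 of 49 genes had a region within 1 kb of a start (28.6%). The share over all protein-coding genes, 12.8%, stands beside this and each family count below. The families are small, and their counts were not tested. Of the large-subunit genes, Mrpl52 had the strongest region, at chromosome 14, 54426438 to 54427351, with its midpoint 15 bp upstream of the start. Its enrichment was 29.9-fold in replicate 1 and 27.1-fold in replicate 2, with 204 and 124 fragments at the summit, and it ranked 406 of all 12925 regions. Its summits lay 46 and 47 bp upstream, within the run shown above. Mrpl30 followed with 28.7-fold and 25.1-fold (262 and 147 fragments) at chromosome 1, 37889940 to 37890673. This region is shared: its midpoint was 30 bp upstream of Mitd1, which runs the other way, and 171 bp upstream of Mrpl30. Mrpl39 (20.4-fold and 13.4-fold), Mrpl17 (13.2-fold and 11.7-fold) and Mrpl48 (14.9-fold and 11.4-fold) were the others above 10-fold in both libraries. The Mrpl48 midpoint lay 40 bp inside the divergent Rab6a, a gene of vesicle transport. At the low end, Mrpl19 had 3.22-fold and 3.07-fold with 18 and 11 fragments.

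Small-subunit proteins had 5 of 29 genes with such a region (17.2%, beside 12.8% of all protein-coding genes). Mrps9 was the strongest by the lower fold, with 19.6-fold and 13.3-fold enrichment, 111 and 51 fragments and its midpoint 104 bp upstream of the start. Mrps18c, with 20.6-fold and 12.1-fold, was the nearest to a start of all 43, at 4 bp upstream. Helq, a DNA helicase gene, starts on the other strand 25 bp from that midpoint. Mrps24, Mrps25 and Mrps33 lay between 10.1-fold and 4.58-fold.

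Of 41 Nduf genes other than assembly factors, named for complex I, which takes electrons from NADH, 9 had a region (22.0%, beside 12.8%). The 41 include Ndufa4 and Ndufa4l2, taken with complex IV among the isoforms. Of 8 assembly factors 2 had one, Ndufaf3 and Ndufaf5. The accessory subunit Ndufa8 was the strongest, with 22.6-fold and 17.4-fold enrichment and 154 and 79 fragments at chromosome 2, 36048892 to 36049816. Ndufs8, a core subunit that carries iron-sulfur clusters, had 19.0-fold and 15.7-fold with its midpoint 139 bp upstream. The core subunit genes Ndufs1, with 6.12-fold and 4.86-fold, and Ndufs7, with 5.27-fold and 3.89-fold, had weaker regions. The Ndufs1 midpoint was nearer to Eef1b2, a translation elongation factor gene on the other strand, at 34 bp against 262 bp. Ndufa3, 17 bp upstream of its start, had 12.6-fold and 10.4-fold. Ndufaf3 had 15.8-fold and 12.1-fold, 109 bp downstream, and the gene of the microRNA mir-191 starts on the other strand 208 bp from that midpoint.

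Complex II, succinate dehydrogenase, had no strong region at the start of any catalytic or anchor subunit gene. Sdhd, a membrane anchor, had 3.13-fold and 2.70-fold enrichment with 20 and 11 fragments, 26 bp downstream of its start. It is one of 3 mitochondrial genes, with Mrpl19 and Cox7b, whose regions belong to a group of 145 at the weak end of the authors' table. Their mean -log10 p ran from 3.53 to 6.22, and no region of the table lay between 6.22 and 11.5. Sdhaf2, an assembly factor that helps attach the flavin to Sdha, had 23.4-fold and 21.2-fold with 133 and 82 fragments, 217 bp downstream. Sdha, Sdhb, Sdhaf3 and Sdhaf4 are not in the authors' table, Sdhaf1 had its nearest region 7616 bp upstream, and Sdhc had its only one 36.5 kb downstream.

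Complex III had 1 of 8 genes with a region within 1 kb (12.5%), near the 12.8% of all protein-coding genes. That region was at Uqcrq, with 22.0-fold and 13.1-fold. Its midpoint lay 239 bp upstream of Uqcrq and 47 bp inside the divergent Gdf9, an oocyte growth factor gene. For complex IV, cytochrome c oxidase, 5 of 18 subunit genes (27.8%) and 1 of 9 assembly genes (11.1%) had one, beside the same 12.8%. Cox7a2 was among the strongest of all 43, with 30.4-fold and 26.0-fold enrichment and 253 and 152 fragments at chromosome 9, 79759510 to 79760120. Its midpoint was 38 bp downstream of the start. Cox5b followed with 13.8-fold and 10.7-fold, 56 bp downstream. The assembly factor was Cox18, a membrane insertase, at 6.23-fold and 4.49-fold. Complex V, the ATP synthase, had 4 of 17 (23.5%). Atp5f1, a subunit of the peripheral stalk, had 22.1-fold and 19.7-fold (133 and 80 fragments) 9 bp downstream of its start at chromosome 3, 105958999 to 105959476. Atp5o, which joins the stalk to the catalytic head, had 12.1-fold and 9.33-fold. Atp5d, a subunit of the central stalk, had 8.38-fold and 6.54-fold, and Atp5g2, one of the genes for the membrane ring, had 8.03-fold and 4.86-fold.

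Isoforms of complex IV limited to tissues such as muscle or testis were set beside their widely expressed partners. Of 8 tissue-limited or oxygen-regulated isoforms, 1 had a region within 1 kb, and of 7 partners 2 did, beside 12.8% of all protein-coding genes. Counts this small show no difference between the groups or from that share. Cox8c, known from testis, had its region inside the gene, 939 bp past the start, with 10.1-fold and 8.61-fold enrichment, so it was the member just inside 1 kb. The next nearest to that limit was Atp5g2 at 434 bp. Among the partners, Cox7a2 had its 26.0-fold region, and Cox7b had 3.67-fold and 3.33-fold 320 bp downstream. Cox7a1, the muscle counterpart of Cox7a2, had its nearest region 10.1 kb away, nearest to Capns1. Cox8b lay 2912 bp from one with 10.4-fold and 5.27-fold, and Cox4i2, Ndufa4l2, Cox4i1 and Cox6a1 had theirs over 10 kb away. Cox6a2, Cox6b2, Cox7b2, Cox6b1, Cox8a and Ndufa4 are not in the authors' table.

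The regions were close to the starts. Of the 43, 26 midpoints (60.5%) lay within 100 bp of a listed start and 36 (83.7%) within 200 bp, while of 2965 pairs of a region and another protein-coding gene within 1 kb, 38.0% lay within 100 bp and 59.2% within 200 bp. The median distance was 74 bp for the mitochondrial genes and 154 bp for the other genes. Measured from RefSeq starts, it was 81 bp over 37 mitochondrial genes and 164 bp over 2055 other genes. Midpoints lay upstream of the start in 20 of the 43 and downstream in 23. Of the 2965 other pairs, 1727 lay upstream and 1220 downstream. In the authors' annotation 39 of the 43 regions overlapped the start, and no matching count for other genes is given here. The 16 regions of at least 10-fold and the 27 weaker ones had the same median distance, 74 bp. These differences were not tested, since the genes were chosen as a list.

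**Figure D3:**
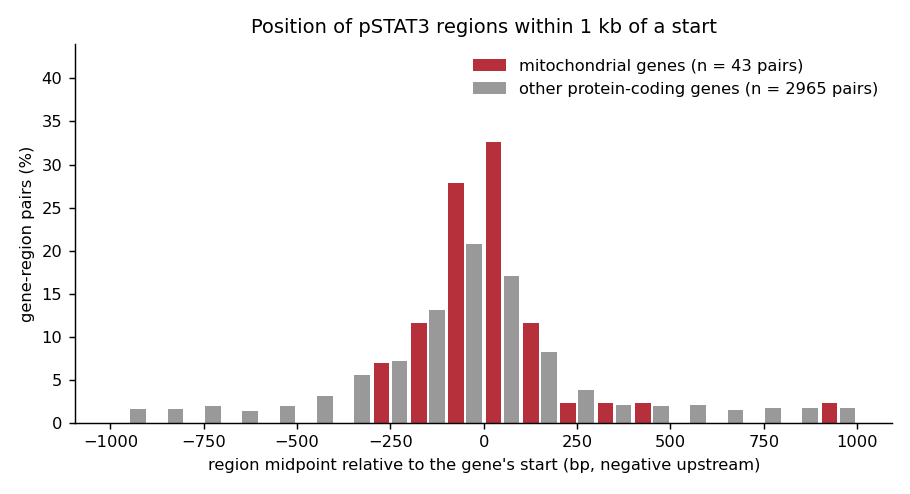
Share of gene-region pairs in 100 bp steps of the distance from region midpoint to the gene's start (negative upstream), for 43 pairs of mitochondrial genes and 2965 pairs of other protein-coding genes. For mitochondrial genes, 27.9% lie in the 100 bp before the start and 32.6% in the 100 bp after it.

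Several of these promoters are shared with a neighbour. In 18 of the 43 (41.9%) another gene started on the opposite strand within 1 kb of the midpoint, beside 25.8% of the pairs with other protein-coding genes. The 18 had a median lower fold of 8.75, and the 25 without such a neighbour one of 6.41. In 5 regions the start of another gene was nearer than that of the mitochondrial gene, beside 386 of the 2965 other pairs. The 5 were Mrpl30 (Mitd1), Mrpl48 (Rab6a), Uqcrq (Gdf9), Ndufs1 (Eef1b2) and Atp5g2 (Mir688). Counting only regions whose nearest start belongs to the gene leaves 38 of the 43 (88.4%), near the 87.0% of the other pairs. Neighbours of the strong regions included Wdr77, whose start on the other strand lay 132 bp from the Atp5f1 midpoint, Morn5, 104 bp from that of Ndufa8, and Cpsf7, 252 bp from that of Sdhaf2. A peak between such starts cannot be given to one gene from its position alone.

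The libraries differed in level and hardly in place. Replicate 1 had the higher fold in 42 of the 43 regions (97.7%), as in 95.1% of all regions, with a median ratio of replicate 1 to replicate 2 of 1.30 against 1.33. Mrpl1 was the exception, with 6.68-fold and 7.88-fold. The widest ratio of folds was at Ndufa5, 2.57, with 13.8-fold and 5.38-fold and 78 and 20 fragments. The summits of both libraries lay within 50 bp of each other in 41 of the 43, beside 84.3% of all regions. The median local background, from pileup and fold, was 5.72 fragments in replicate 1 and 3.61 in replicate 2 at the mitochondrial genes, against 5.19 and 3.26 at other protein-coding starts. The lowest background in each list was 4.72 and 2.91, the only measure of depth it holds.

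**Figure D4:**
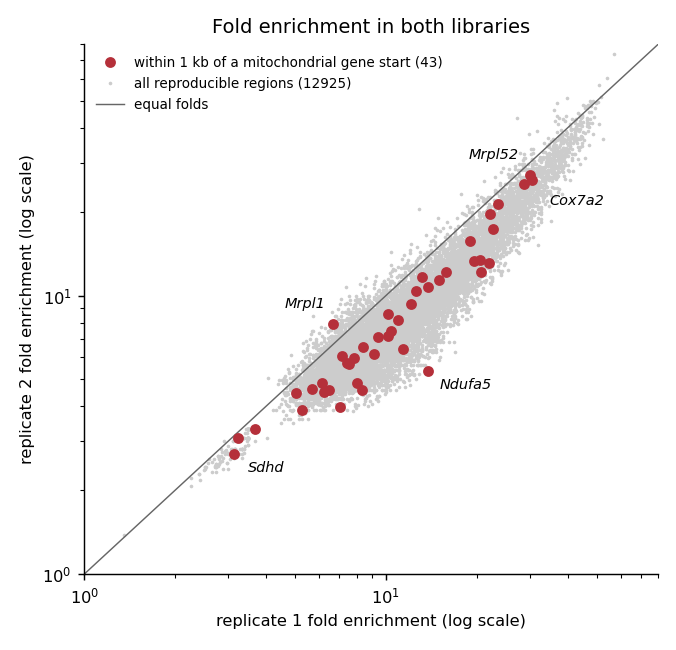
Fold enrichment in replicate 1 (horizontal) and replicate 2 (vertical), both on log scales, for the 43 regions within 1 kb of a mitochondrial gene's start and all 12925 regions. All of the 43 but Mrpl1 lie below the line of equal folds, and Ndufa5 lies farthest from it.

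Peaks outside the reproducible regions were counted at these starts too. Of the 187, 158 had a RefSeq start in the promoter table used here, and 37 of these (23.4%) had a reproducible region within 1 kb of it, beside 2092 of 17491 protein-coding genes (11.96%). A further 34 (21.5%, beside 10.8%) had a peak of each library there but no reproducible region, 42 had a peak of replicate 1 alone and 3 one of replicate 2 alone, which together compare with 16.2% of all genes. No peak lay within 1 kb in 42 genes (26.6%, beside 61.1%). Counted by library, 113 of the 158 (71.5%) had a replicate 1 peak, beside 37.8%, and 74 (46.8%) had a replicate 2 peak, beside 23.7%. Among the 34, chosen after their values were seen, Atp5j2 had the highest lower fold, with 5.31-fold and 5.83-fold, followed by Mrpl21 with 9.80-fold and 4.61-fold and Mrps23 with 5.25-fold and 4.61-fold, which tie on the lower fold. Sdhb was in this class too, at 3.58-fold and 4.17-fold, while Sdha had a peak in replicate 1 alone. Of 5 complex III genes with a start in the promoter table, 4 had a peak in replicate 1 alone. That class held 26.6% of the 158 and 15.1% of all protein-coding genes. Uqcrq, the complex III gene with a reproducible region within 1 kb of a listed start, is not among the 5.

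**Figure D5:**
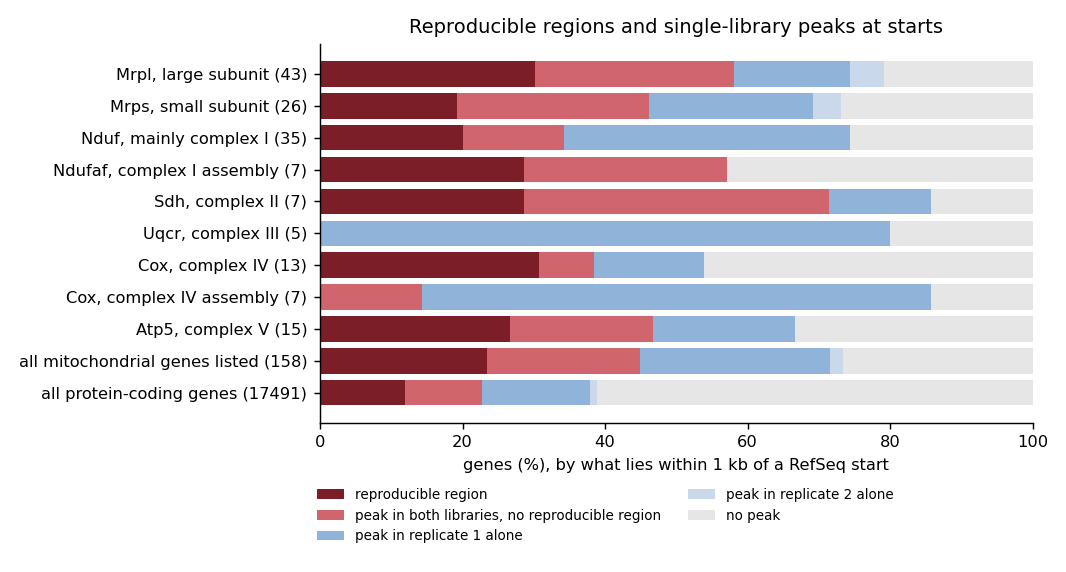
Share of genes, in percent, by what lay within 1 kb of a RefSeq start, for each family with its number of genes in brackets, all 158 mitochondrial genes and 17491 protein-coding genes. A reproducible region or a peak in each library was found at 23.4% and 21.5% of the 158 genes, and 26.6% had no peak.

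The authors' table missed 1 gene of the group that RefSeq places at a region. The region at chromosome 5, 31613779 to 31614271, had its midpoint 74 bp downstream of the RefSeq start of Mrpl33, with 5.78-fold and 4.82-fold enrichment and 52 and 30 fragments. The table names only Rbks there, whose start is 26513 bp away. With it the RefSeq count is 37, and the other 36 are among the 43.

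Regions farther than 1 kb from the gene they are listed beside numbered 101, and 41 of them lay within 1 kb of another listed start. By the lower fold, the strongest of them was that of Ndufa7, a complex I subunit, at chromosome 17, 33826841 to 33827234, inside the gene and 1416 bp from its start. It had 42.3-fold and 38.7-fold enrichment, 241 and 150 fragments, and rank 64 of all regions. It is also the nearest beyond 1 kb, followed by that of Mrpl2 at 1526 bp, which lies 25 bp upstream of Cul7, a ubiquitin ligase gene. Over 5 kb away, the strongest were those beside Ndufv3 (42.3-fold and 38.6-fold, 6.85 kb), Mrps18a (34.3-fold and 34.6-fold, 26.6 kb), Sdhc (37.0-fold and 28.7-fold, 36.5 kb), Ndufb9 (26.8-fold and 28.5-fold, 43.1 kb) and Sdhaf1 (25.4-fold and 27.2-fold, 9.90 kb). Those of Ndufv3 and Sdhc lay within 1 kb of the starts of other transcripts, RP23-106N22.5 and 1700009P17Rik. Atp5d had the most regions listed, 8, of which 7 lay 6.88 to 22.7 kb downstream, where Midn or Cirbp had the nearest start. The Atp5d region at 10.4 kb, the strongest of these, had 22.4-fold and 13.3-fold.

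Promoter letters were also counted for factors known to act on mitochondrial genes, on both strands of the window from 250 bases before to 50 after each RefSeq start. The STAT palindrome was in 11 of the 158 genes (6.96%), beside 8.92% of all protein-coding genes. It was in 6 of the 36 with a region within 1 kb of a listed start (16.7%) and in 5 of the other 122 (4.10%), Mrpl33 being among the 122, while other genes with a region had it in 14.5%. Of the 6, only Ndufa8, Mrpl30, Atp5f1 and Atp5o had a match within 30 bp of both summits. Mrps25 had its match farther off, and the Atp5d region lay wholly upstream of the window with its matches. The stricter TTCCNGGAA, which is part of the same matches, was in 3 of the 158 (1.90%, beside 1.38%). The NRF1 core GCGCATGCG was in 17 (10.8%, beside 2.61%), the YY1 core AAGATGGCG in 17 (10.8%, beside 2.14%), the ETS core CCGGAAGT in 21 (13.3%, beside 5.69%) and the GC box GGGGCGGGG in 26 (16.5%, beside 17.3%). In the 36 these were in 6, 3, 4 and 8 genes (16.7%, 8.33%, 11.1% and 22.2%). Other genes with a region had them in 3.33%, 3.86%, 9.72% and 25.0%, so the ETS core and the GC box were near those shares. In the other 122 they were in 11, 14, 17 and 18 (9.02%, 11.5%, 13.9% and 14.8%). These small counts were not tested.

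Other genes of mitochondrial gene expression and respiratory chain assembly were taken from a list of 61. Of these, 12 had a region within 1 kb of a start (19.7%, beside 12.8% of all protein-coding genes), with a median lower fold of 7.60. The strongest was Pprc1, a coactivator related to PGC-1, 13 bp inside its start, with 17.1-fold and 14.3-fold enrichment. Mrrf, the ribosome recycling factor, had 20.5-fold and 12.6-fold, and Bcs1l, which inserts the Rieske protein into complex III, had 14.9-fold and 10.8-fold. The complex I assembly gene Foxred1 had 13.7-fold and 9.59-fold, Dap3 of the small subunit 12.2-fold and 7.86-fold, Oxa1l, an inner membrane insertase, 7.87-fold and 8.45-fold, and Surf1 of complex IV assembly 8.48-fold and 7.34-fold. Polg, the mitochondrial DNA polymerase, had 6.77-fold and 7.42-fold, Ssbp1 6.47-fold and 6.88-fold, and Gfm2 5.95-fold and 5.38-fold. Lrpprc and Coa5 were the weakest, at 6.56-fold and 4.96-fold and at 6.11-fold and 4.61-fold. The regions of Mrrf, Bcs1l, Gfm2 and Coa5 had their nearest starts in Rbm18, Zfp142, Nsa2 and Unc50. Position alone cannot give these regions to one gene. Atpif1, the inhibitor of ATP synthase, had a region of 19.4-fold and 18.8-fold 1.89 kb upstream, nearest to Dnajc8. The regulators Nrf1, Gabpa, Yy1, Tfam and Ppargc1a had no region within 5 kb of a listed start.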

How the data were processed

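The data are 2 pSTAT3 ChIP-seq libraries of mouse oligodendrocyte progenitor cells. The submitters' processing notes name CASAVA 1.8, Bowtie2 and MACS2 on GRCm38.p3, without their options. Each library has a peak list deposited by the authors. Its pileup signal, its fold ratio over local background and its -log10 p and q values are used as deposited, the headers of the last pair being damaged. The deposited region table has the IDR, at most 0.05, as its p-value column. Its columns headed pileup and fold are identical and matched the mean -log10 p of the replicates within 0.001 in 12377 of 12925 regions, so folds were taken from the strongest peak of each list overlapping by at least 1 bp.

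Regions were placed by the summit column, the region's midpoint, against the Ensembl starts in that table. All 97 gene names matched RefSeq (GRCm38.p6) by symbol or synonym. Local background was (pileup + 1) / fold - 1. No test of the list was made, and intervals cover counting error only. Genes were named by rule: the strongest and the nearest regions, family leaders, and fixed lists. Members and lists were chosen with earlier results of these data known. Values came from Python 3.11.15 with pandas 2.3.3, numpy 2.4.6 and scipy 1.17.1, figures from matplotlib 3.10.9, and the placement and motif steps were tested on simulated data. Total reads per library are not given in the sources used here. The values of 1 gene are not reported here. The NRF1 and YY1 cores of 9 letters were chosen after counts for versions 1 letter longer, which fewer promoters held, had been seen.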

Additional observations from a re-analysis of the deposited data

Results flagged for a closer look

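The mitochondrial genome itself, which encodes the remaining subunits of the respiratory chain, is outside the region table. Replicate 2 had 14 peaks on it and replicate 1 had 0, a signal in data that no comparison above uses. The 14 peaks had 1.33-fold to 1.56-fold enrichment with a median of 1.44, and 202 to 240 fragments at the summit. At or below 1.56-fold lay 0.109% of all replicate 2 peaks. The libraries' difference was not tested, and the peaks give no reproducible signal.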

How the results depend on the processing

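Of 37 values recomputed under other settings, 27 stayed within the limits set for a change. Those limits were not alike for gene counts and shares. At an IDR of 0.01 or below, 31 genes within 1 kb against 43 passed as unchanged. The matching share, 16.6% against 23.0%, counted as changed, so the 27 are no measure of stability. With an IDR of 0.01 or below, the share of the 187 genes with a region within 1 kb was 16.6% and the median lower fold 10.4. A -log10 q of at least 10 in both libraries gave 15.5% and 10.7. Both settings leave fewer regions. Of the 43 regions at mitochondrial gene starts, 72.1% had an IDR of 0.01 or below, beside 79.0% at other protein-coding starts. The share over all protein-coding genes is not given for these settings or for the single libraries below. The 12.8% above is therefore no match for these shares. Single libraries, with 1 left out, gave 56 to 74 genes within 1 kb, 68 to 82 within 5 kb, a share of 30.5 to 40.1% and a median fold of 4.86 to 5.26. In each count the higher number is without replicate 2. These single-library counts and shares use only starts listed in the authors' table, so the 88 genes absent from it enter as without a peak. By RefSeq starts, 113 of 158 genes had a replicate 1 peak within 1 kb (71.5%, beside 37.8% of all protein-coding genes). For replicate 2 it was 74 (46.8%, beside 23.7%). The stricter STAT palindrome was in 3 promoters, against 11. Placing regions by either library's summit or requiring 50% of the peak inside the region left all 4 values as reported. Using names of protein-coding genes alone could change none of the 4, since all 97 names matched such genes. Its 4 values are nonetheless among the 27. No paired analysis was possible because no processed input files were used here and the ChIP libraries form 1 group. Read depth is unknown, so the absence of a region at a start says only that none was called at this depth.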
